A study of Mus musculus with 4 samples.

Results

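The 35 genes described here are Myc, its partner Max, 30 genes of ribosome biogenesis and 3 growth genes counted among MYC targets (Eif4a1, Odc1 and Srm). They were chosen by name with earlier results of these data known, so the shares called among them only describe this list. All 35 were found among the 14082 genes listed for each library and passed the filter on low counts that left 13358 genes. Bulk RNA was sequenced from ovalbumin-specific CD8 T cells that had been sorted out of subcutaneous tumours of E.G7, a line derived from the EL4 mouse T lymphoma that expresses ovalbumin. Hosts were 6 to 10 weeks of age when the tumour cells were given. Hosts labelled KO carried Cd8-cre and Smad4-fl/fl, and hosts labelled WT carried Smad4-fl/fl, so both groups had the floxed alleles and were told apart by Cre, whose expression follows Cd8 regulatory sequence. Each group had 2 libraries, and nothing in the labels says whether these came from separate or pooled animals, so p-values measure the spread between these libraries, which may be technical.

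MYC binds DNA as a dimer with MAX, most strongly at E-boxes with the sequence CACGTG, and raises transcription of genes that cells need to grow. Ribosome biogenesis is prominent among them: RNA polymerase I makes the ribosomal RNA precursor, small nucleolar ribonucleoproteins (snoRNPs) modify it, and sets of assembly factors cut and fold it into the small and large subunits. CD8 T cells induce Myc and this machinery on activation. In epithelial cells, SMAD complexes are known to repress Myc when TGF-beta is present.

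Smad4 itself was read first. It had 779 and 1088 counts in the libraries labelled KO, against 752 and 736 in those labelled WT, and its log2 fold change of 0.19 did not pass (edgeR quasi-likelihood, Benjamini-Hochberg adjusted p = 0.397). A gene-level count also holds exons that Cre leaves in place, so it does not show whether the floxed part was lost, and every direction below is between libraries labelled KO and WT. Summed counts ran from 24366540 to 26218277 per library. Markers of CD8 T cells were detected in every library (8 of 8 listed), with a summed level of 1939 to 1956 CPM in the libraries labelled KO and 2837 to 2898 CPM in those labelled WT. Of these 8 genes, 5 were called lower and 0 higher, beside 11.0% and 10.1% of all tested genes. The tumour line derives from a T lymphoma, so T cell markers need not come from the sorted cells alone. The part of tumour cells was not tested. Here CPM are counts scaled to library size, with edgeR's TMM factors. Transcripts of other cells were present as well: 9 of 9 monocyte or macrophage markers summed to 16548 and 17286 CPM in KO against 16967 and 17622 CPM in WT, and 8 of 8 neutrophil markers to 1927 and 1967 CPM in KO against 672 and 681 CPM in WT. What part transcripts of other cells had in the Smad4 counts was not tested. The 10 cycling genes summed to 1785 and 1848 CPM in KO and 1453 and 1412 CPM in WT. Transcripts encoded by mitochondria took 6.78% ± 0.299 of counts in KO and 10.3% ± 0.123 in WT (SD, n = 2 each). What part these differences had in the results below was not tested, and in bulk RNA fewer cells of a type cannot be told apart from less RNA per cell.

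The promoters of the members were searched for the E-box CACGTG, which reads the same on both strands, in RefSeq windows from 250 bases before to 50 bases after each gene's start (GRCm38.p6). Windows were matched by symbol for 28 of the 35 members, and not for Myc, Fbl, Rrp12, Bop1, Rrs1, Npm1 and Srm. The E-box was in 7 of the 28 windows, or 25%, against 11.3% of the 10632 tested genes with a window. It was in 3 of 11 windows of members called higher in KO and 4 of 16 windows of members that did not pass. The 7 sites are shown because they are the letters that MYC and MAX are known to bind, printed 5′ to 3′ on the gene's strand, in lower case with the E-box in capitals.
Nop2, site 60 bases before the start, chr6:125131811-125131840 (+): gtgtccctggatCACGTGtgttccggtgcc
Mybbp1a, site 41 bases into the gene, chr11:72441355-72441376 (+): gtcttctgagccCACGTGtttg
Wdr43, site 18 bases into the gene, chr17:71616220-71616249 (+): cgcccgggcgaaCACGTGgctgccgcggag
Max, site 3 bases before the start, chr12:76962234-76962263 (-): ggtgagcccggtCACGTGttagggggccga
Pes1, site 3 bases into the gene, chr11:3963965-3963994 (+): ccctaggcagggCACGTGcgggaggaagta
Utp20, site 38 bases into the gene, chr10:88826765-88826789 (-): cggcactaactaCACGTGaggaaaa
Eif4a1, site 189 bases before the start, chr11:69672595-69672624 (-): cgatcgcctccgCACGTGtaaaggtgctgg
The first 3 of these genes were called higher in KO and the other 4 did not pass. The whole 250 bases before the start of Nop2 are given as the promoter of the member with an E-box that rose most (chr6:125131633-125131882, plus strand, E-box in capitals).
Nop2: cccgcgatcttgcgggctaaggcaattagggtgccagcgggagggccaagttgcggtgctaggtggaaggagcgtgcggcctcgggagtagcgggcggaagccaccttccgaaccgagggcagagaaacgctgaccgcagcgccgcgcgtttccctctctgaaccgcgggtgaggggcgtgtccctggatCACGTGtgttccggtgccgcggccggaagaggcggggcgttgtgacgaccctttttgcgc
A match describes these letters in these windows. No binding was measured, and members without a match may hold E-boxes elsewhere.

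Across the list, which was chosen with earlier results of these data known, small rises in the libraries labelled KO were common. Of the 35 members, 14 were called higher, or 40%, beside 10.1% of all tested genes, and 1 was called lower, or 2.86%, beside 11.0% (edgeR quasi-likelihood, Benjamini-Hochberg adjusted p under 0.05). With library totals alone as the scaling, 22 members were called higher, beside 15.8% of all tested genes. The median log2 fold change was 0.19 over the members and -0.0037 over all tested genes, and 32 of the 35 estimates were above 0. Both KO libraries lay above both WT libraries in 28 members, or 80.0%, beside 29.7% of all tested genes. No member reached a doubling: the estimates ran from -0.37 for Odc1 to 0.59 for Srm. Together the members had 5693 and 5705 CPM in KO against 5050 and 4967 CPM in WT, a ratio of group means of 1.14. As a share of all counts they took 0.587% ± 0.000380 in KO and 0.486% ± 0.00684 in WT (SD, n = 2 each). A single summed value of 2 libraries against 2 cannot go below p = 0.333 in an exact two-sided permutation test, so no test is given for it.

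**Figure D1:**
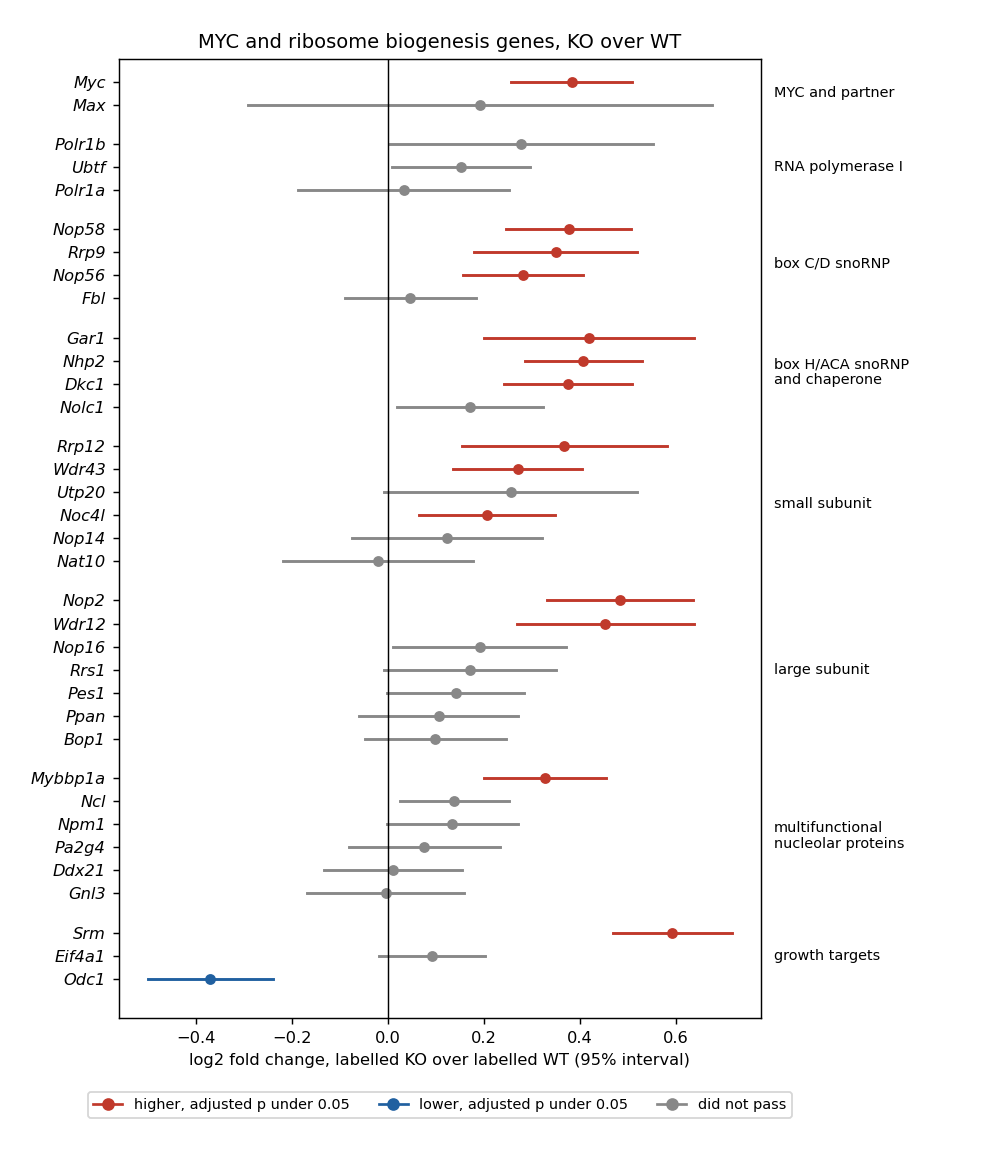
Log2 fold change of each of the 35 members, libraries labelled KO over WT, with its 95% confidence interval, grouped by role. Red marks the 14 members called higher and blue Odc1, called lower, at an adjusted p under 0.05, and grey marks the 20 that did not pass.

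**Figure D2:**
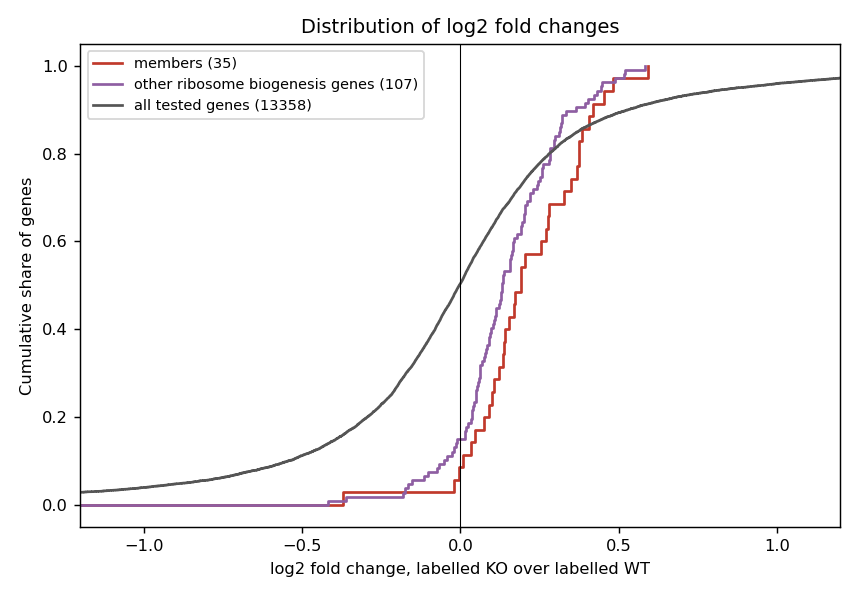
Cumulative share of genes by log2 fold change, KO over WT, for the 35 members, 107 other ribosome biogenesis genes and all 13358 tested genes. The curve of all tested genes crosses its middle near 0, while the members have their median at 0.19 and the other ribosome biogenesis genes at 0.13.

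Myc rose in the libraries labelled KO, and Max gave no consistent reading. Myc, which encodes the transcription factor, had 186 and 192 CPM in KO against 145 and 145 CPM in WT. The groups did not overlap, and the rise was 1.30-fold (log2 fold change 0.38 with a 95% interval of 0.26 to 0.51, edgeR adjusted p = 0.000519). Over the 13 alternative fits the log2 fold change of Myc lay between 0.36 and 0.47 and its adjusted p between 2.67e-06 and 0.00398 (edgeR, DESeq2 or limma-voom). Max, the obligate partner, had 12.7 and 22.6 CPM in KO and 14.1 and 16.8 CPM in WT. The KO libraries of Max stood on either side of the WT libraries, and its log2 fold change of 0.19 had an interval of -0.29 to 0.67 (edgeR adjusted p = 0.607). Single libraries decided the direction of Max: its log2 fold change was 0.55 when KO replicate 1 was left out and -0.28 when KO replicate 2 was left out. Myc lies on chromosome 15 from 61985391 to 61990374 and Max on chromosome 12 from 76937269 to 76962201 (GENCODE M21 on GRCm38, the assembly called mm10).

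Among 11 other genes of the MYC network, 1 was higher (9.09%) and 2 were lower (18.2%), beside 10.1% and 11.0% of all tested genes. Mxd1, whose product pairs with MAX and opposes MYC at E-boxes, had 398 and 394 CPM in KO against 198 and 209 CPM in WT, a log2 fold change of 0.96 (edgeR adjusted p = 1.13e-07). That estimate was above those of all 35 members, a difference that was not tested. Mlxip, which encodes MondoA, the nutrient-responsive partner of MLX, had 99.3 and 116 CPM in KO against 159 and 155 CPM in WT, a log2 fold change of -0.54 (edgeR adjusted p = 0.000276). Mxd4, another MAX-binding repressor, changed by -0.36 on the log2 scale (edgeR adjusted p = 0.0442). The median over the 11 was 0.02. Neutrophil markers rose beside Mxd1, and their part in its value was not tested.

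The 3 members of the RNA polymerase I machinery did not pass. Ubtf, the factor that keeps ribosomal DNA open for transcription, had 114 and 114 CPM in KO and 105 and 99.7 CPM in WT. These groups did not overlap, but the log2 fold change was 0.15 with an interval of 0.0089 to 0.30 (edgeR adjusted p = 0.129). Polr1b, the second-largest subunit of the polymerase, and Polr1a, the largest subunit, had log2 fold changes of 0.28 and 0.03 (edgeR adjusted p = 0.148 and 0.864), and Polr1a overlapped between the groups. While 0 of these 3 were called by edgeR, DESeq2 or limma-voom, 2 had an unadjusted p under 0.05 with edgeR. Without KO replicate 1, which left a single KO library, the log2 fold change of Polr1b was 0.39. Of 16 other tested genes of this machinery, 2 were higher, or 12.5%, beside 10.1% of all tested genes. The other 14 did not pass, and the median over the 16 was 0.07. The called pair were Polr2f, a subunit that all nuclear RNA polymerases share, at 0.32, and Rrn3, which brings polymerase I to its promoters, at 0.26 (edgeR adjusted p = 0.0101 and 0.0193).

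Of the 4 members for box C/D snoRNP proteins, which guide methylation and early cleavage of ribosomal RNA, 3 were called higher. That is 75%, beside 10.1% of all tested genes. Nop58, a core scaffold protein, had 172 and 167 CPM in KO against 133 and 129 CPM in WT, with a log2 fold change of 0.38 (edgeR adjusted p = 0.000712). Nop56, the other scaffold, had 405 and 377 CPM in KO against 315 and 329 CPM in WT, with a log2 fold change of 0.28 (edgeR adjusted p = 0.00410). Rrp9, which is specific to the U3 particle, had 87.3 and 80.7 CPM in KO against 67.7 and 64.1 CPM in WT, with a log2 fold change of 0.35 (edgeR adjusted p = 0.00687). All of these libraries of KO stood above those of WT. The Rrp9 call was lost without WT replicate 2 (edgeR adjusted p = 0.0535), and its adjusted p had a low of 0.000220 over the alternatives. Fbl, fibrillarin, the methyltransferase of the same particle, had 117 and 117 CPM in KO against 114 and 113 CPM in WT. Its groups did not overlap, yet the log2 fold change of 0.05 did not pass (interval -0.09 to 0.18, edgeR adjusted p = 0.663). Snu13, a further core protein gene, is no member and was picked after its value was seen. It changed by 0.17 and did not pass (edgeR adjusted p = 0.0615).

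Genes of the box H/ACA snoRNP, which converts uridines of ribosomal RNA to pseudouridine, rose evenly in the 3 core members. With Nolc1, 3 of 4 members of this group were called higher, or 75%, beside 10.1% of all tested genes. Dkc1, dyskerin, the pseudouridine synthase, had 161 and 154 CPM in KO against 122 and 120 CPM in WT, a log2 fold change of 0.37 (edgeR adjusted p = 0.000863). Nhp2 had 235 and 239 CPM in KO against 175 and 182 CPM in WT, a log2 fold change of 0.41 (edgeR adjusted p = 0.000262). Gar1 had 41.5 and 41.4 CPM in KO against 31.9 and 30.1 CPM in WT, a log2 fold change of 0.42 (edgeR adjusted p = 0.0105), a call lost without WT replicate 2 (edgeR adjusted p = 0.0939, the highest over its alternatives, with a low of 0.00312). None of the 3 overlapped between the groups. Nop10, the remaining core protein, which is no member and was picked after its value was seen, changed by 0.09 (edgeR adjusted p = 0.322). Nolc1, a phosphoprotein that binds snoRNPs on their way to the nucleolus, had 118 and 119 CPM in KO against 99.9 and 110 CPM in WT. KO lay above WT here too, but the log2 fold change of 0.17 did not pass (edgeR adjusted p = 0.107). In the list of 11 other tested snoRNP genes 1 was higher, or 9.09%, beside 10.1% of all tested genes, and the median was 0.09. The called gene was Ruvbl2, an ATPase of the assembly machinery, at 0.52 (edgeR adjusted p = 5.49e-05).

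**Figure D3:**
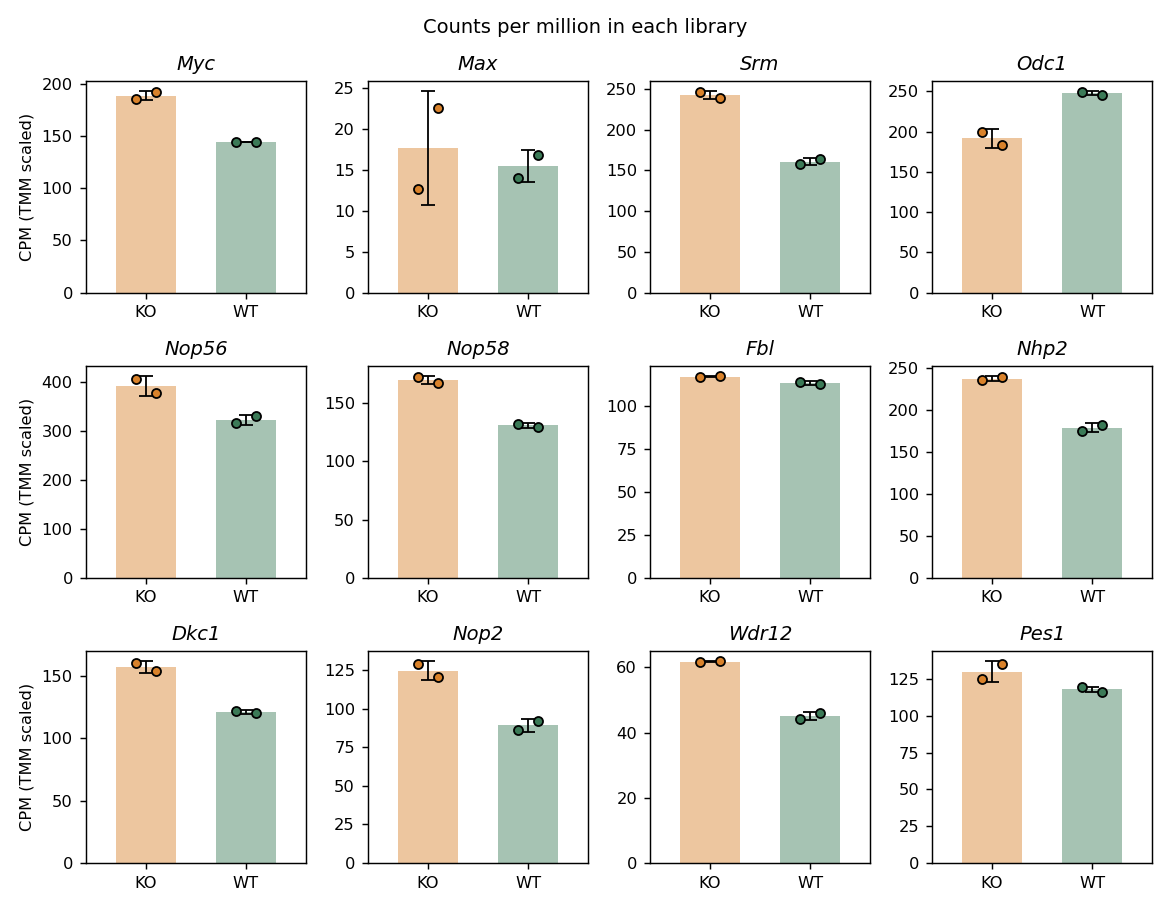
CPM (TMM scaled) of 12 members in each library, libraries labelled KO left of WT. Dots are libraries, bars are group means and whiskers the SD of 2 libraries. Max overlaps between the groups, Fbl is nearly level at 117 against 113 to 114, and Odc1 is the one shown that is lower in KO.

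Of the 6 small subunit members 3 were called higher, or 50%, beside 10.1% of all tested genes. Rrp12, needed for maturation and export of the small subunit precursor, had 46.9 and 53.0 CPM in KO against 38.0 and 39.4 CPM in WT, a log2 fold change of 0.37 (edgeR adjusted p = 0.0184). Wdr43, an early-binding factor of the small subunit processome, had 146 and 141 CPM in KO against 118 and 120 CPM in WT, a log2 fold change of 0.27 (edgeR adjusted p = 0.00784). Noc4l, a partner of the Nop14 protein, had 112 and 111 CPM in KO against 95.9 and 97.7 CPM in WT, a log2 fold change of 0.21 (edgeR adjusted p = 0.0410). The groups of all 3 were apart, but each call was lost under at least 1 alternative. Rrp12 was lost without WT replicate 1, WT replicate 2 or KO replicate 2 (edgeR adjusted p = 0.123, 0.0561 and 0.0623, with a low of 0.000553 over the alternatives), and Wdr43 without WT replicate 1 (edgeR adjusted p = 0.0750, with a low of 0.00120). Noc4l was lost without any 1 of the 4 libraries, with the block and with DESeq2 (adjusted p from 0.0568 to 0.240), and its low was 0.00611. Nat10, which acetylates cytidines of ribosomal RNA, had 49.0 and 45.5 CPM in KO and 46.9 and 49.0 CPM in WT, overlapping groups with a log2 fold change of -0.02 (edgeR adjusted p = 0.912). The processome proteins Utp20 and Nop14 had log2 fold changes of 0.26 and 0.12 and did not pass (edgeR adjusted p = 0.166 and 0.387).

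Of the 7 large subunit members 2 were called higher, or 28.6%, beside 10.1% of all tested genes, and the other 5 did not pass. Both KO libraries lay above both WT libraries in all 7, as they did in 29.7% of all tested genes. Nop2, which methylates a cytidine of the large subunit RNA and whose E-box is printed above, had 129 and 120 CPM in KO against 86.2 and 92.1 CPM in WT, a 1.40-fold rise (log2 fold change 0.48, edgeR adjusted p = 0.000373). Wdr12 had 61.8 and 61.9 CPM in KO against 44.3 and 46.1 CPM in WT, a 1.37-fold rise (log2 fold change 0.45, edgeR adjusted p = 0.00229). The WDR12 protein works with BOP1 and PES1 in the PeBoW complex, which processes the large subunit RNA. Pes1 had 125 and 135 CPM in KO against 119 and 117 CPM in WT, groups that lay close without overlap, with a log2 fold change of 0.14 and an interval of -0.0011 to 0.28 (edgeR adjusted p = 0.156). Bop1 had a log2 fold change of 0.10 and an interval of -0.05 to 0.25 (edgeR adjusted p = 0.346). The assembly factors Nop16, Rrs1 and Ppan had log2 fold changes of 0.19, 0.17 and 0.11 and did not pass (edgeR adjusted p = 0.129, 0.173 and 0.376).

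Subunit assembly genes outside the 35 were read from lists that, like the members, were drawn up with earlier results of these data known. Of 41 other small subunit factors 8 were higher and 1 lower, with a median of 0.13, and of 39 other large subunit factors 12 were higher and 1 lower, with a median of 0.16. The small subunit genes with the smallest p were Utp4, a processome protein, at 0.52, Riok1, an atypical kinase of late small subunit maturation, at -0.42, and Nob1, the nuclease that makes the mature end of the small subunit RNA, at 0.32 (edgeR adjusted p = 7.98e-05, 0.00406 and 0.00617). Those of the large subunit were Rpf2, which helps bring in a preassembled ribonucleoprotein, at 0.49, Las1l, which takes part in spacer cleavage, at 0.43, and Zfp622, whose yeast counterpart acts in late cytoplasmic maturation, at 0.45 (edgeR adjusted p = 0.000655, 0.00171 and 0.00223). Taking the 4 lists of RNA polymerase I, snoRNP, small and large subunit genes together, 23 of 107 were higher, or 21.5%, and 2 were lower, or 1.87%, beside the 10.1% and 11.0% of all tested genes. Their median of 0.13 was smaller than the members' 0.19, and this difference was not tested. Cycling genes and markers of neutrophils, dendritic cells, fibroblasts, erythroid cells and B cells had higher summed levels in the same libraries. Markers of CD8 T cells had lower summed levels there. What part these differences had in these counts was not tested.

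Of the 6 members for multifunctional nucleolar proteins 1 was called higher, or 16.7%, beside 10.1% of all tested genes. Mybbp1a, a MYB-binding protein that also acts on ribosomal RNA synthesis and processing, had 239 and 235 CPM in KO against 195 and 183 CPM in WT, well apart, with a log2 fold change of 0.33 (edgeR adjusted p = 0.00164). Npm1, the histone and ribosome chaperone nucleophosmin, had 518 and 563 CPM in KO against 516 and 469 CPM in WT. Here KO replicate 1 was next to WT replicate 1, and the log2 fold change of 0.13 did not pass (edgeR adjusted p = 0.161). Without KO replicate 1, which left a single KO library, the log2 fold change of Npm1 was 0.19. Ncl, nucleolin, changed by 0.14 and did not pass at an adjusted p of 0.0843 (edgeR), with KO above WT. Pa2g4, Ddx21 and Gnl3, which encode EBP1, a nucleolar RNA helicase and nucleostemin, overlapped between the groups, with log2 fold changes of 0.08, 0.0098 and -0.0048 (edgeR adjusted p = 0.522, 0.941 and 0.976). Their intervals, -0.08 to 0.23, -0.13 to 0.15 and -0.17 to 0.16, leave room for changes smaller than most of the called rises.

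The growth genes moved apart, and both ends of the whole list were polyamine enzymes. Srm, spermidine synthase, had 246 and 238 CPM in KO against 158 and 163 CPM in WT, a 1.51-fold rise (log2 fold change 0.59 with an interval of 0.47 to 0.72, edgeR adjusted p = 1.1e-05). Odc1, ornithine decarboxylase, which makes the putrescine that SRM uses, had 200 and 184 CPM in KO against 250 and 246 CPM in WT, a 1.29-fold fall (log2 fold change -0.37 with an interval of -0.50 to -0.24, edgeR adjusted p = 0.000818). In neither gene did the groups overlap, and both calls held under all 13 alternative fits, with Odc1 between -0.43 and -0.28 and Srm between 0.56 and 0.68 on the log2 scale. Of 11 further polyamine genes 1 was higher, or 9.09%, beside 10.1% of all tested genes, and 10 did not pass. Smox, spermine oxidase, which returns spermine to spermidine, had 102 and 95.4 CPM in KO against 63.8 and 63.3 CPM in WT, a log2 fold change of 0.64 (edgeR adjusted p = 6.09e-05). Eif4a1, the helicase that unwinds the start of messenger RNAs for translation, had 885 and 869 CPM in KO against 837 and 809 CPM in WT, narrowly apart, and its log2 fold change of 0.09 did not pass (edgeR adjusted p = 0.235). Beside 10.1% and 11.0% of all tested genes, 1 of 11 related translation initiation genes was higher (9.09%) and 2 were lower (18.2%). These were Eif4ebp1, which encodes an inhibitor of the cap-binding protein, at 0.41, the scaffold gene Eif4g3 at -0.56, and Pdcd4, which encodes an inhibitor of the helicase, at -0.48 (edgeR adjusted p = 0.000605, 0.000453 and 0.00106).

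A list of 31 further genes often counted as MYC-linked had 15 higher, or 48.4%, and 1 lower, or 3.23%, with a median of 0.24. All tested genes gave 10.1% higher and 11.0% lower. This list too was drawn up with earlier results of these data known. Cycling genes and markers of several other cells had higher summed levels in the same libraries, and their part in these counts was not tested. Hspd1 and Hspe1, the paired chaperonin genes of mitochondria, had log2 fold changes of 0.59 and 0.57, and Cdca7, a MYC-responsive gene of dividing cells, of 0.66 (edgeR adjusted p = 4.81e-06, 1.52e-05 and 0.000105).

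**Figure D4:**
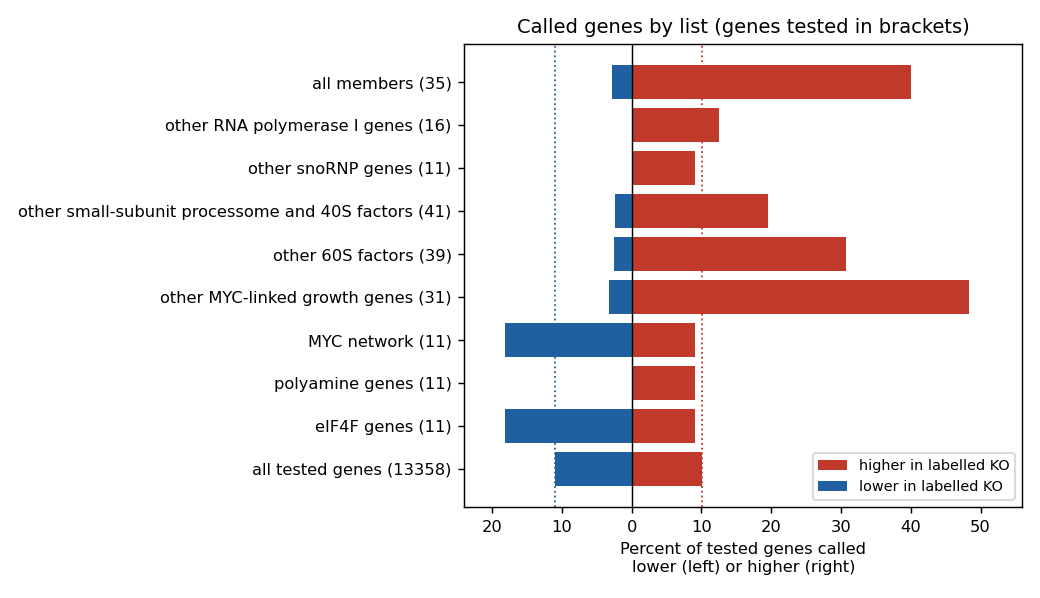
Percent of tested genes called higher (right, red) and lower (left, blue) in libraries labelled KO at an adjusted p under 0.05, by list, with the number tested in brackets. Dotted lines mark all tested genes, 10.1% higher and 11.0% lower. The members reach 40% higher, the other MYC-linked growth genes reach 48.4%, and the other ribosome biogenesis lists lie between 9.09% and 30.8%.

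Ratios of counts between members within a library do not depend on the scaling of libraries, and were computed for pairs of one particle or pathway chosen after the values were seen. The count of Srm over that of Odc1 was 1.23 and 1.30 in KO against 0.632 and 0.665 in WT, 0.96 higher on the log2 scale. Nop58 over Fbl was 1.47 and 1.43 in KO against 1.16 and 1.15 in WT, with both KO libraries above both WT libraries. Nop56 over Nop58 was lower in KO without overlap, at 2.35 and 2.25 against 2.38 and 2.55 in WT, a difference of -0.096 on the log2 scale. Within the PeBoW complex, Wdr12 over Pes1 was 0.493 and 0.458 in KO against 0.371 and 0.395 in WT. Bop1 over Pes1 was 0.901 and 0.903 in KO against 0.930 and 0.928 in WT, a difference of -0.04 on the log2 scale. In the box H/ACA particle, Dkc1 over Nhp2 was 0.683 and 0.644 in KO and 0.698 and 0.659 in WT, and Gar1 over Nhp2 was 0.177 and 0.173 in KO and 0.182 and 0.165 in WT. Both of these ratios overlapped between the groups. With 2 libraries a group, no ratio can go below p = 0.333 in an exact two-sided permutation test.

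**Figure D5:**
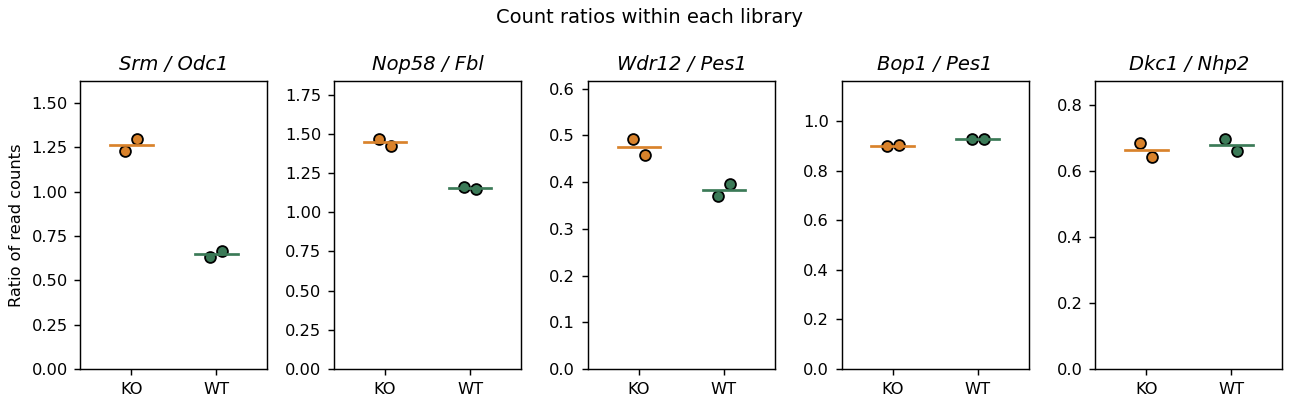
Ratios of read counts of paired members in each library, KO left of WT, each axis starting at 0. Dots are libraries and lines group means. Srm over Odc1, Nop58 over Fbl and Wdr12 over Pes1 are higher in KO, Bop1 over Pes1 is slightly lower, and Dkc1 over Nhp2 overlaps.

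Levels differed widely between members when set per length, in the deposited FPKM (counts scaled to gene length and library depth). The highest were Nhp2 at 200.2 ± 2.06 FPKM in KO and 150.2 ± 4.66 in WT, Eif4a1 at 196 ± 2.92 in KO and 183 ± 4.0 in WT, and Npm1 at 196 ± 11.3 in KO and 178 ± 11.8 in WT (SD, n = 2 each). The lowest was Utp20 at 2.40 ± 0.0348 FPKM in KO and 2.0 ± 0.120 in WT. Myc had 67.2 ± 1.41 FPKM in KO and 51.3 ± 0.110 in WT, and Max 4.74 ± 1.87 in KO and 4.13 ± 0.537 in WT. The lengths that these FPKM imply were in proportion to the exon length of GENCODE M21 within 0.1% for 35 of 35 members, and that length joins the exons of every annotated transcript. For Fbl it is 4209 bases, against 1197 for the longest coding transcript, so an FPKM understates such a gene beside Rrs1, where both are 2048 bases. A level per length therefore ranks these genes only roughly.

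The members called higher did not share one place or one level. They lie on 12 chromosomes, and their mean level ran from 36.2 to 357 CPM with a median of 135 CPM, beside a range of 16.5 to 850 CPM and a median of 94.8 CPM in the 20 members that did not pass. Of the 35 genes, 9 host annotated snoRNAs within their bounds, 25 snoRNAs in all, and 4 of the 14 called higher are such hosts (Nop56, Nop58, Dkc1 and Wdr43), as are 4 of the 20 that did not pass. Exons of 14 members overlap those of another annotated gene, by 0.122% of exon length for Nop56 with Idh3b up to 5.28% for Nop14 with Gm15522. Whether reads were counted by strand is not given in the sources used here, so a few reads of these members may come from the partner gene.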

How the data were processed

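RNA of 4 libraries, 2 labelled KO and 2 labelled WT, was extracted with Trizol and made into libraries at BGI, per the labels' protocols. Per the submitters' processing notes, which state no roles, the tools were featureCounts, Bowtie2, Trim Galore 0.4.4, DESeq2 and edgeR, and the build was mm10. Per the file headers the authors gave each gene a read count, a whole number without scaling, and an FPKM, used here only for levels per length. The quasi-likelihood test of edgeR 4.0.16 (R 4.3.3, glmQLFit with robust estimation, TMM factors) was run on the deposited counts of the 13358 genes that filterByExpr kept, at minima of 10 for a count and 15 for a total. A gene was called at a Benjamini-Hochberg adjusted p under 0.05. Standard errors were derived from each F statistic, intervals are 95% and ± is the SD of 2 libraries. Replicates differed by more than counting noise (chi-square per degree of freedom of 10.5 for KO and 8.16 for WT), so none were merged. On simulated counts for KO over WT, with 200 of the genes changed and 13024 tested, 58.0% of genes changed 1.5-fold and 80.0% of those changed 2-fold were recovered, and 2.47% of calls were false. Changes under 1.5-fold, which most members had, were not simulated. In the data 1354 genes were called higher and 1472 lower, so these rates need not hold for the calls reported here.

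Alternatives were other scalings and filters, leaving out mitochondrial genes, a block for the replicate number, omission of each library in turn, DESeq2 1.42.0, voom in limma 3.58.1 and an adjusted p under 0.1. Omission of a library left a single one in its group, so that group's own spread did not enter those fits. Members, role groups and lists were chosen with earlier results of these data known. Values in every library are given for Myc, Max, the called members and the most abundant member of each role group that did not pass. In each related list up to 3 called genes without overlap are named, by smallest p. Of the fixed markers of other cells, 6 of 6 dendritic cell genes summed to 287 and 300.3 CPM in KO against 169 and 171 CPM in WT. Of these 6, 2 were called higher. The most abundant, Siglech, had 168 and 174 CPM in KO against 67.1 and 64.9 CPM in WT, while Xcr1 lay below WT without passing. Of the 8 neutrophil genes 7 were called higher, and Ly6g, at 0.704 CPM or less, was not. Fibroblast markers (4 of 4, with 3 called higher) summed to 569.8 and 636 CPM in KO against 536 and 488 CPM in WT. Erythroid markers (4 of 4, with 3 called higher) summed to 76.9 and 48.5 CPM in KO against 24.6 and 30.8 CPM in WT. B cell markers (5 of 5, with 4 tested and 2 called higher) summed to 16.4 and 14.1 CPM in KO against 6.92 and 6.88 CPM in WT. Over all tested genes 10.1% were called higher and 11.0% lower. Endothelial markers (3 of 3, with 1 called lower) summed to 49.9 and 50.3 CPM in KO against 50.1 and 46.0 CPM in WT, and NK cell markers (2 of 3) to at most 1.40 CPM in any library.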

Additional observations from a re-analysis of the deposited data

How the results depend on the processing

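The count of members called higher was 14, and 13 to 16 under the other filters and scalings, the replicate block, DESeq2, limma-voom, an adjusted p under 0.1 and leaving out mitochondrial genes, KO replicate 1 or KO replicate 2. It was 22 with library totals alone (15.8% of tested genes, 2105, against 1354 with TMM), where the members' median was 0.28 and that of all tested genes 0.08. Leaving out 1 library at a time gave 10 to 16 members higher, with 10 without WT replicate 2 and 11 without WT replicate 1, while all tested genes gave 714 to 1605 higher and 831 to 1787 lower. Odc1 stayed the 1 member lower in all of these fits. The members' median was 0.17 with the replicate block and with limma-voom and 0.16 to 0.20 when libraries were left out. The members' share of counts was 0.101 percentage points higher in KO, 0.0874 without mitochondrial genes and 0.0959 to 0.106 without 1 library, and it involves no other scaling. Of the 14 calls, 9 held in all 13 alternative fits, and Rrp9, Gar1, Wdr43, Rrp12 and Noc4l did not. Same-numbered libraries did not deviate together (correlation -0.02 over tested genes), so the numbers were not taken to pair the libraries, and the block changed 1 member's call, that of Noc4l (edgeR adjusted p = 0.0833). Estimates that changed sign all belong to members that did not pass: Gnl3 was 0.0031 with upper quartile scaling, 0.080 with library totals alone and -0.066 to 0.053 without 1 library, Nat10 was 0.065 with library totals alone and -0.075 to 0.031 without 1 library, and without 1 library Ddx21 was -0.032 to 0.049, Max -0.28 to 0.55, Polr1a -0.076 to 0.13 and Pa2g4 -0.036 to 0.18. The causes were not tested. The widest intervals among members were those of Max, Polr1b and Utp20, which had 333 to 974 counts per library.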
